A study of Homo sapiens with 4 samples.

Results

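LTR12 names other than LTR12C were followed in single cells of 2 human cancer lines treated with inhibitors of DNA methylation and histone deacetylation. The members are all loci in the deposited table of transposable element (TE) counts whose name begins with LTR12 and is not LTR12C. They carry 6 subfamily names, LTR12, LTR12_, LTR12B, LTR12D, LTR12E and LTR12F, and number 1804 of 261609 TE loci, against 2350 loci named LTR12C. The rule reads names and not counts, although the set was proposed with earlier results of these data known. The lines were H1299, from a human lung carcinoma, and HCT116, from a human colorectal carcinoma, each grown at passage 5 to 10 with the solvent DMSO or with DAC and SB939 together (DAC+SB, called treated). The DNA methyltransferase inhibitor DAC (decitabine) was given at 500 nM for 72 h, and the histone deacetylase inhibitor SB939 at 500 nM for 18 h. Medium was renewed every 24 h. Single-cell libraries were made with the 5′ chemistry of 10x Genomics, which reads transcripts from their 5′ end. Each of the 4 combinations was 1 library, so no difference below has a replicate check and no test between conditions was made.

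LTR12 elements are the long terminal repeats (LTR) of ERV9, a primate endogenous retrovirus. An LTR holds the retrovirus's own promoter, and most copies in the genome are solitary LTRs that have lost the internal retroviral genes. In most tissues they are kept silent by DNA methylation and repressive chromatin. The transcription factors NF-Y and GATA2 are known to bind ERV9 LTRs, and transcripts of TP63 and TNFRSF10B are known to start in such elements.

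The libraries held 15289 cells in all, 3578 to 4327 per library, and 38927267 to 64524196 gene and TE counts per library. Median counts per cell were 17369.5 and 15784.5 in H1299 (DMSO first) and 16257.5 and 8449 in HCT116, so treated HCT116 was the shallowest. Mitochondrial genes held 9.50% and 9.35% of counts in H1299 and 17.4% and 18.2% in HCT116, and 131 of 15158 barcodes occurred in more than 1 library. Of 8 markers of HCT116 (EPCAM, CDX2 and others), 3, 1, 1 and 0 were at 0 in DMSO H1299, treated H1299, DMSO HCT116 and treated HCT116, and their summed level was 0.248, 10.4, 108.8 and 64.9 CPM (counts scaled to a library total of 1000000). The 8 markers of H1299 (VIM, AXL and others) summed to 2909, 1340, 103.8 and 307 CPM, so each sum was higher in its own line. With DMSO the sums were mostly EPCAM (80.7 CPM in HCT116) and VIM (2282 CPM in H1299), and not every marker followed. Between the treated lines ESRP1 and LGALS4, both HCT116 markers, were higher in H1299, at 2.92 against 2.41 CPM and 1.60 against 1.08 CPM. ZEB1, an H1299 marker, was near even, at 14.4 CPM in treated H1299 and 14.1 in treated HCT116. KRT20 was at 0 in both H1299 libraries, CDH1 in DMSO H1299, CDX1 in both DMSO libraries and CDH2, an H1299 marker, in DMSO HCT116. The summed HCT116 markers were higher with DAC+SB than with DMSO in H1299, and the summed H1299 markers likewise in HCT116. The latter sum was mostly VIM, at 47.0 and 265.1 CPM in HCT116 (DMSO first). CDH2, TGFBI, SPARC and FN1 were also higher there with DAC+SB. AXL and NT5E were lower, with ratios of 0.0971 and 0.618, and ZEB1 had 0.923 (0.829 to 1.03). The part of such shifts in the results was not tested.

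Names of TE features have 3 fields, a family, a position number and a locus number. The sources used here do not say what the numbers stand for, and no locus was placed in the genome. A combination of family and position number (a class) appears in a library only from 20 counts upward, and an absent class cannot be read as 0, or even as fewer than 20 counts. LTR12C position 58, for example, had 356 counts in DMSO H1299 and was not listed in treated H1299, where LTR12C as a whole was 99.5 times higher. No ratio was computed for a subfamily not listed in a library. Levels are CPM of all gene and TE counts, and values in parentheses are exact 95% intervals that cover counting error only.

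Over all listed classes, the 6 subfamilies were far more abundant in the DAC+SB libraries wherever a DMSO value existed. Together they had 1054 counts (16.3 CPM) in DMSO H1299, 123783 counts (1983 CPM) in treated H1299, 13815 counts (220.5 CPM) in DMSO HCT116 and 225895 counts (5803 CPM) in treated HCT116. Their share of all TE counts was 0.822%, 6.41%, 6.91% and 10.4% in the same order. The ratio of DAC+SB to DMSO was 121.4 (114.2 to 129.1) in H1299, while HCT116 had 26.3 (25.9 to 26.8). The H1299 sum counts LTR12_ and LTR12B with DAC+SB only, since neither was listed in DMSO H1299, and the HCT116 sum does so for LTR12F. Over subfamilies listed in both libraries of a line the log2 ratio was 6.56 in place of 6.92 for H1299 and 4.68 in place of 4.72 for HCT116. LTR12C, the subfamily with most counts, had ratios of 99.5 and 83.7, or 6.64 and 6.39 on the log2 scale, so in H1299 the order of the 6 names together and LTR12C turns with that choice. The HCT116 ratio of the set rests on 1 locus, described below, that held 91.8% of its counts in DMSO HCT116. Without that locus the HCT116 ratio was 243.3 (229.5 to 258.1), and the H1299 ratio was 126.9 (119.1 to 135.3).

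**Figure D1:**
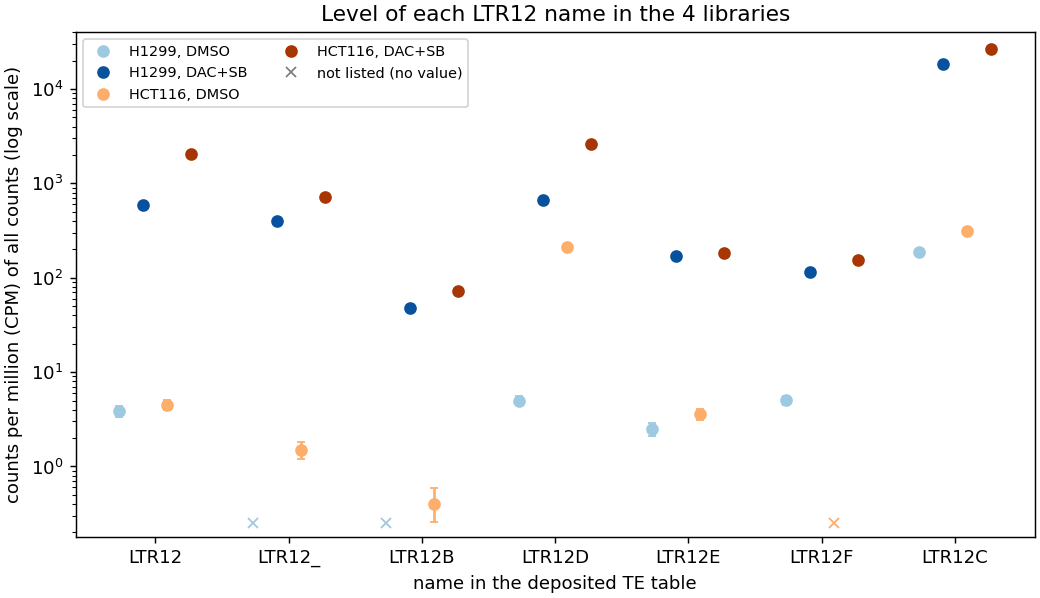
Level of the 6 subfamilies and LTR12C in each library, in CPM on a log axis, with exact Poisson 95% intervals (counting error only) as bars. Where a subfamily is listed in both libraries of a line, its DAC+SB point lies above its DMSO point, and LTR12D in DMSO HCT116 stands above the other 5 subfamilies in the DMSO libraries. Crosses mark subfamilies not listed in a library and have no height.

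LTR12D and LTR12 were the most abundant of the 6 names in both treated lines, and LTR12B the least. LTR12 had 248 and 37058 counts in H1299 (DMSO first) and 282 and 78899 in HCT116, ratios of 154.4 (136.3 to 175.7) and 450.2 (400.5 to 507.9). With DMSO its level in HCT116 was 1.17 times that in H1299 (0.984 to 1.39), an interval that includes 1, and 1.54 times (1.25 to 1.91) without its locus 2844903. With DAC+SB it was 3.41 times higher in HCT116 (3.37 to 3.46). LTR12_ had 93 counts in DMSO HCT116, 28150 in treated HCT116 and 24882 in treated H1299, and it was not listed in DMSO H1299. Its HCT116 ratio was 487.1 (397.4 to 603.7), or 8.93 on the log2 scale, and 9.62 without its locus 321157. LTR12B had 25 and 2796 counts in HCT116, a ratio of 180.0 (121.7 to 278.6), and 2949 in treated H1299, and it too was not listed in DMSO H1299.

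LTR12D had 321 and 41148 counts in H1299 and 13191 and 102985 in HCT116, ratios of 132.5 (118.7 to 148.3) and 12.6 (12.3 to 12.8). LTR12E had 161 and 10557 counts in H1299 and 224 and 7085 in HCT116, ratios of 67.8 (58.0 to 79.7) and 50.9 (44.6 to 58.4). LTR12F had 324 and 7189 counts in H1299, a ratio of 22.9 (20.5 to 25.7), and 5980 in treated HCT116, and it was not listed in DMSO HCT116. Of the TE families listed in both H1299 libraries with at least 100 counts in the higher one, 22.6% were at least 4-fold higher with DAC+SB, and all 4 LTR12 names with a value were among them. LTR12E passed that fold through position 52, which was not listed in DMSO H1299. Over classes listed in both H1299 libraries its log2 ratio was 0.31, which is short of 4-fold. In HCT116 46.7% of families passed that fold, as did all 5 names with a value. By size of the ratio, LTR12 and LTR12D were first and second of 186 families in H1299. LTR12_, LTR12 and LTR12B had the 3 highest ratios of 199 families in HCT116, where LTR12D ranked 29 and LTR12E ranked 10. LTR12C ranked 3 in H1299 and 5 in HCT116, so high ranks were not particular to the 6 names.

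Locus 1701101 of LTR12D stood apart from all other members in HCT116. It had 83 and 4605 counts in H1299 (DMSO first) and 12679 and 54137 in HCT116. It held 96.1% (95.8 to 96.4) of LTR12D counts in DMSO HCT116 and 52.6% (52.3 to 52.9) in treated HCT116, but 11.2% (10.9 to 11.5) in treated H1299. With each cell counted once per locus it held 81.4%, 12.4% and 4.52% in the same order. With DMSO its level was 157.4 times higher in HCT116 than in H1299 (126.8 to 197.7), and with DAC+SB 18.9 times (18.3 to 19.4). Its own ratio of DAC+SB to DMSO was 57.3 (46.2 to 72.1) in H1299, and HCT116 had 6.87 (6.74 to 7.01). Over the remaining LTR12D loci the ratios of the lines lay close together, with 158.7 (139.7 to 181.0) for H1299 cells and 153.5 (140.7 to 167.8) for HCT116 cells.

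Counts of locus 1701101 in DMSO HCT116 were spread unevenly over cells. A count was seen in 1222 of 3658 cells, or 33.4%, with a median of 7 and a mean of 10.4 counts among them and a maximum of 84. While 66.6% of cells had none, 12.9% had 10 counts or more, and 184 cells (5.03%) had 20 or more. In DMSO H1299 only 28 of 3578 cells (0.783%) had a count. With DAC+SB a count was seen in 4040 of 4327 HCT116 cells (93.4%), and in 1082 of 3726 H1299 cells (29.0%). After every cell was thinned to 3300 counts, 0.335% of DMSO H1299 and 23.0% of DMSO HCT116 cells had it, against 12.2% and 86.5% of treated cells. In DMSO HCT116, cells with the locus had a median of 17076.5 total counts and cells without it 15845, so the 2 sets of cells differed little in depth.

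**Figure D2:**
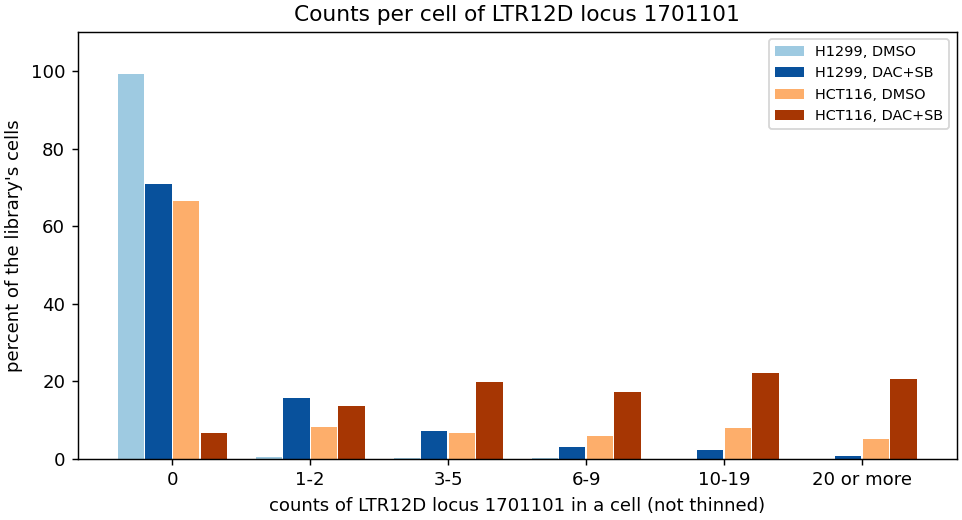
Percent of each library's cells (vertical axis) by the number of counts of LTR12D locus 1701101 in the cell (horizontal axis, not thinned). In DMSO HCT116 66.6% of cells have no count and 5.03% have 20 or more, whereas nearly all DMSO H1299 cells lie at 0.

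Within a subfamily, the listed treated counts fell almost wholly on 1 position number or on 2 neighbouring ones. These were the same in both lines. LTR12C had 100% and 99.9% of its listed counts at position 59 in treated H1299 and treated HCT116. This concentration was therefore not particular to the members, and no such share is given here for all TE families. Classes that are not listed may also hold counts, and their part in these shares was not tested. LTR12 was counted at positions 20 and 21, with 73.2% and 76.9% of counts at position 20 in treated H1299 and HCT116. LTR12_ was counted at positions 13 and 14, with 87.6% and 79.2% at 14. LTR12D was counted at 41 and 42 with DAC+SB, with 94.1% and 96.5% at 41. LTR12F was counted at 16 and 17, with 74.6% and 83.2% at 17, and LTR12E lay to 97.7% at position 52 in each treated line. LTR12B was counted at 12 and 13, with 75.3% and 92.5% at 13, and 159 further counts at position 28 were listed in treated H1299 alone.

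The position with most counts was the same at most single loci, while its share was smaller with each locus counted once at a position. Counted so, position 20 held 57.5% and 55.2% of LTR12 in treated H1299 and treated HCT116, in place of 73.2% and 76.9%, and position 41 held 68.8% and 72.6% of LTR12D, in place of 94.1% and 96.5%. Among LTR12 loci with at least 20 counts, 112 of 129 in treated H1299 and 201 of 247 in treated HCT116 had most of their counts at position 20. For LTR12D the numbers were 133 of 136 and 167 of 170 loci at position 41, and for LTR12_ 87 of 92 and 112 of 121 loci at position 14. Most LTR12 loci had counts at both neighbouring positions, 121 of the 129 in H1299 and 231 of the 247 in HCT116. For LTR12D 84 of 136 and 87 of 170 loci did so, and for LTR12F 19 of 29 and 19 of 46. The counts of LTR12_ locus 321157, 1512 in treated H1299, 4217 in treated HCT116 and 44 in DMSO HCT116, all lay at position 13. The share of LTR12_ at position 13 was 51.6% in DMSO HCT116, where this locus held 47.3% of LTR12_ counts.

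**Figure D3:**
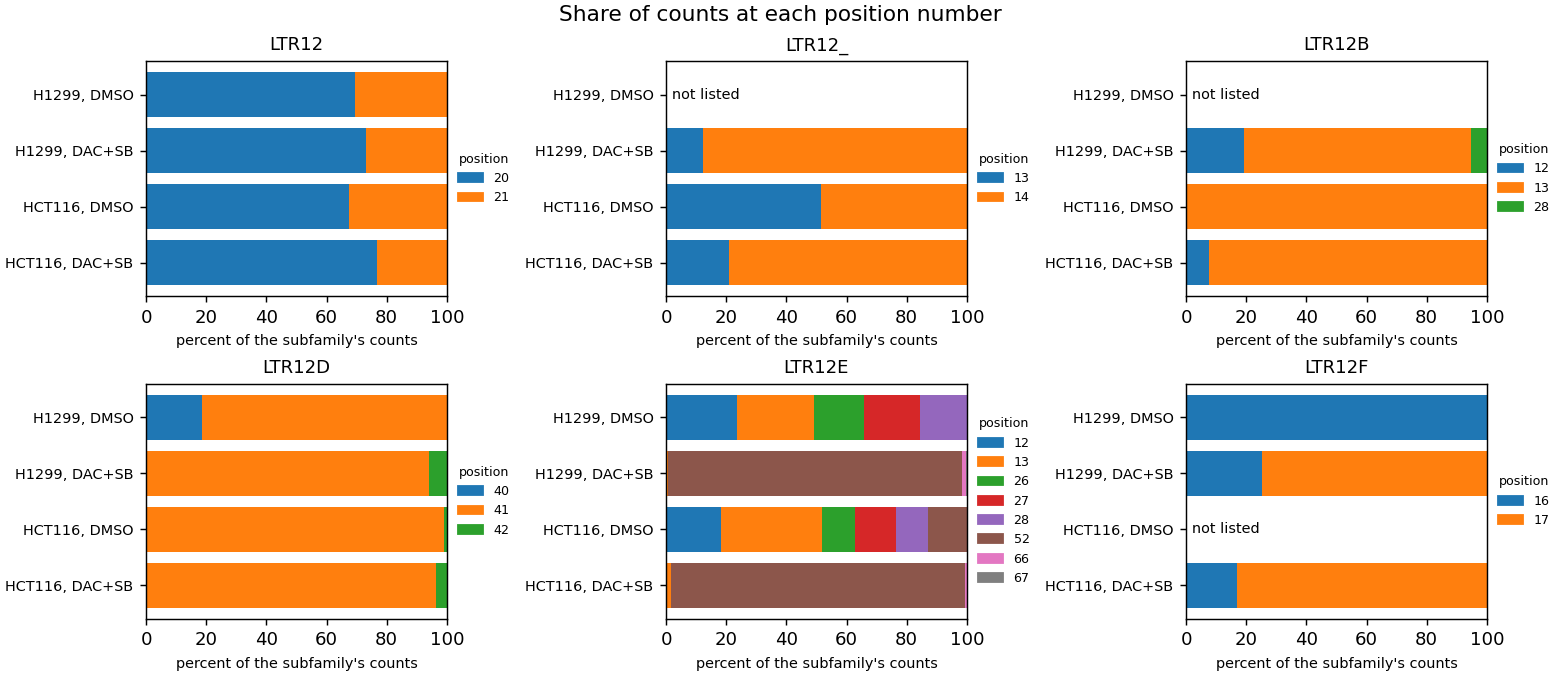
Percent of each subfamily's counts at each listed position number, by library. The treated bars of both lines share their main position numbers, and LTR12E is the subfamily whose DMSO and DAC+SB bars differ most, with position 52 at 97.7% in both treated libraries.

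In the listed classes, LTR12E had its DMSO and DAC+SB counts mostly at different position numbers and loci. With DMSO its counts lay at positions 12, 13, 26, 27 and 28, with 25 to 41 counts each in H1299 and 24 to 75 in HCT116. Position 52 was not listed in DMSO H1299, so its counts there are unknown. It had 29 counts at 8 loci in DMSO HCT116, against 10309 and 6921 counts in treated H1299 and treated HCT116. Its ratio in HCT116 was 384.0 (267.2 to 573.9). Position 13, the only one listed in all 4 libraries, had 41 and 58 counts in H1299, a ratio of 1.46 (0.963 to 2.24) whose interval includes 1. In HCT116 it had 75 and 86 counts, a ratio of 1.85 (1.34 to 2.55). Over the classes listed in both libraries, the log2 ratio of LTR12E in H1299 was 0.31, against 6.08 over all listed classes. In HCT116, where both libraries list position 52, it was 6.29 against 5.67.

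The listed DMSO counts of LTR12E came mostly from 3 loci, which were picked out after their values were seen. Locus 5053920 had 89, 27, 13 and 10 counts in DMSO H1299, treated H1299, DMSO HCT116 and treated HCT116. Locus 4776371 had 39, 15, 128 and 17 counts, and locus 4667441 had 28, 3, 57 and 34, in the same order. The ratios of the 3 loci in H1299 were 0.314 (0.196 to 0.487), 0.398 (0.204 to 0.738) and 0.111 (0.0215 to 0.359). In HCT116 they were 1.24 (0.486 to 3.06), 0.214 (0.121 to 0.356) and 0.960 (0.609 to 1.49), with 1 inside the interval for the first and the last. However, positions 26 and 27 were not listed in either treated library, 12 not in treated H1299 and 28 not in treated HCT116, so their treated counts may be incomplete. LTR12E loci with a listed DMSO count held 0.445% of the LTR12E counts of treated H1299 and 18.6% of those of treated HCT116. Position 52 was not listed in DMSO H1299, so the first share may be too low. The treated counts came instead from loci such as 1255972, with 3015 and 1368 counts in treated H1299 and HCT116, and 6196085, with 2626 and 982. Neither had a count in the classes listed in the DMSO libraries.

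In the listed classes, LTR12F also had its DMSO and treated counts mainly at different position numbers in H1299. Its 324 DMSO counts all lay at position 16, which had 1824 with DAC+SB, a ratio of 5.82 (5.17 to 6.57). Position 17 was not listed with DMSO, so its DMSO counts are unknown, and it had 5365 counts with DAC+SB. Locus 5238504 was the main LTR12F locus of treated H1299 with 1796 counts, and had 144 in DMSO H1299 and 102 in treated HCT116. Locus 351019 led in treated HCT116 with 720 counts against 246 in treated H1299. LTR12D had 60 counts at position 40 in DMSO H1299, a position listed in no other library.

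Loci with a count numbered 61 in DMSO H1299 and 1292 in treated H1299, while HCT116 had 137 and 1691. With all libraries thinned to the total of the shallowest, H1299 had 46 and 1175 loci and HCT116 had 110 and 1691. Most loci counted with DMSO were counted again with DAC+SB, 54 of 61 in H1299 and 129 of 137 in HCT116. In H1299 these 54 loci held 26.5% of the treated counts, so most treated counts came from loci without a listed DMSO count, although LTR12_ and LTR12B were not listed there at all. In HCT116 the 129 loci held 60.1%, a share to which locus 1701101 contributed 24.0% of all counts. The same overlap was not computed over all TE loci, so it is not read as particular to the members. Over classes that both H1299 libraries list, 111 of 113 loci with at least 100 counts were at least 4-fold higher with DAC+SB, where 90.7% of all TE loci were. The number found the same way in HCT116 was 218 of 218, where 94.2% of all TE loci were. A locus at 0 with DMSO was set to 3 counts for this, as were 87 of the 113 and 150 of the 218, so these counts stand near the background and set the members little apart from other TE loci.

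A pair of LTR12D loci in H1299 had ratios far below that of their subfamily. Locus 5413767 had 75 counts with DMSO and 70 with DAC+SB, a ratio of 0.965 (0.686 to 1.35). Locus 2682918, the LTR12D locus with most counts in DMSO H1299, had 89 and 138, a ratio of 1.60 (1.22 to 2.12). Both had DMSO counts at position 40, which was not listed in treated H1299, so their treated counts may be incomplete. They had 18 and 3 counts in treated HCT116. They were named after their values were seen.

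Counts in the treated libraries were concentrated on few copies, more so than for LTR12C. The 28 loci with most counts held 50% of the counts of the 6 subfamilies in treated H1299 and 14 loci did so in treated HCT116, out of 1292 and 1691. For LTR12C 71 of 2208 and 79 of 2310 loci were needed. Locus 1701101 alone held 24.0% of the members' counts in treated HCT116, and the number of loci needed without it was not computed. In LTR12B a single locus had the largest share of a subfamily in treated H1299, where locus 2739517 had 1463 of 2949 counts (49.6%), and it had 1445 of 2796 (51.7%) in HCT116. LTR12 locus 2844903 led its subfamily in both treated lines, with 6151 counts (16.6%) in H1299 and 11858 (15.0%) in HCT116, after 97 and 56 with DMSO. Its ratio of DAC+SB to DMSO was 65.5 (53.6 to 80.9) for H1299 and 340.7 (262.2 to 451.4) for HCT116. The DMSO counts of this locus lay in few cells, 47 in H1299 with at most 11 in 1 cell, and 18 in HCT116 with at most 16. LTR12_ was led by locus 4595979 in H1299, with 4395 counts (17.7%), and by locus 321157 in HCT116 (15.0%). With each cell counted once per locus these shares were smaller, at 7.70% and 7.24% for LTR12 locus 2844903 and 11.4% and 11.7% for the leading LTR12_ loci, and LTR12B locus 2739517 had 45.4% and 48.4%.

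The treated lines shared most of the active copies of H1299. At a minimum of 20 counts, 424 loci were found in treated H1299 and 620 in treated HCT116, with 340 in both, or 80.2% of the first and 54.8% of the second. These 340 loci held 93.2% and 88.3% of the members' counts. By the same measure LTR12C loci overlapped by 92.7% and 77.7%, and all TE loci by 64.8% and 43.4%, so the members lay between them. LTR12B had 6 loci in both, 40% of its H1299 and 42.9% of its HCT116 loci, and LTR12F had 19, or 65.5% and 41.3%.

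Levels of the members were higher in treated HCT116 than in treated H1299, most for LTR12D and LTR12. The ratio was 4.01 (3.97 to 4.06) for LTR12D, 3.41 for LTR12, 1.81 for LTR12_, 1.52 for LTR12B, 1.33 for LTR12F and 1.08 (1.04 to 1.11) for LTR12E. For LTR12C it was 1.42, or 0.505 on the log2 scale, and the median log2 ratio of the 264 TE families compared was 0.80. On that scale LTR12B (0.605), LTR12F (0.416) and LTR12E (0.106) lay below the median family, as did LTR12C. LTR12_ (0.859) lay just above it, and LTR12 (1.77) and LTR12D lay further above. LTR12D was 1 of the families at least 4-fold higher in HCT116, which made up 13.3% of all. Its log2 ratio was 1.99 without cells above 25% mitochondrial counts, which is short of 4-fold. Without locus 1701101 its ratio was 2.14 (2.11 to 2.17).

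At single loci, 121 of 273 members with at least 100 counts in either treated library were at least 4-fold higher in HCT116, or 44.3%, where 38.6% of all TE loci were. In the other direction 15 members, or 5.49%, were at least 4-fold higher in H1299, where 6.77% of all TE loci were. Both shares were near those of all TE loci. At 2-fold the members' shares were 62.3% higher in HCT116 and 13.9% higher in H1299, beside 54.2% and 15.4% of all TE loci, and at 8-fold 28.2% and 3.30%, beside 24.3% and 2.85%. At a minimum of 50 counts they were 45.6% and 5.25% of 419 members, beside 42.6% and 7.20%. The share higher in HCT116 was 61 of 102 for LTR12, 22 of 50 for LTR12_, 25 of 84 for LTR12D, 9 of 17 for LTR12F, 4 of 16 for LTR12E and 0 of 4 for LTR12B. For LTR12C it was 335 of 1104, or 30.3%.

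Some of the most abundant loci differed by over 4-fold between the treated lines while being counted in both. LTR12 locus 5831423 had 177 counts in treated H1299 and 7102 in treated HCT116, a ratio of 64.3 (55.4 to 75.1). LTR12 locus 4112758 had 270 and 4235 counts, a ratio of 25.2 (22.2 to 28.6), and LTR12D locus 1762295 had 500 and 4588, a ratio of 14.7 (13.4 to 16.2). Neither line had more than 7 counts of any of these 3 loci with DMSO. In the opposite direction LTR12_ locus 6391529 had 3853 counts in treated H1299 and 326 in treated HCT116, a ratio of HCT116 to H1299 of 0.136 (0.121 to 0.152). For LTR12F locus 5238504 that ratio was 0.0911 (0.0739 to 0.111). Other leading loci were close to even in level, such as LTR12_ locus 4595979 with 4395 and 3813 counts, a ratio of 1.39 (1.33 to 1.45). LTR12 locus 5693236 had 2685 and 1646, a ratio of 0.983 (0.924 to 1.05). It was seen in 5.90% of treated H1299 and 9.73% of treated HCT116 cells, so it was less even by cells. The 10 cells with most held 38.3% and 24.9% of its counts, a spread that the interval does not cover.

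**Figure D4:**
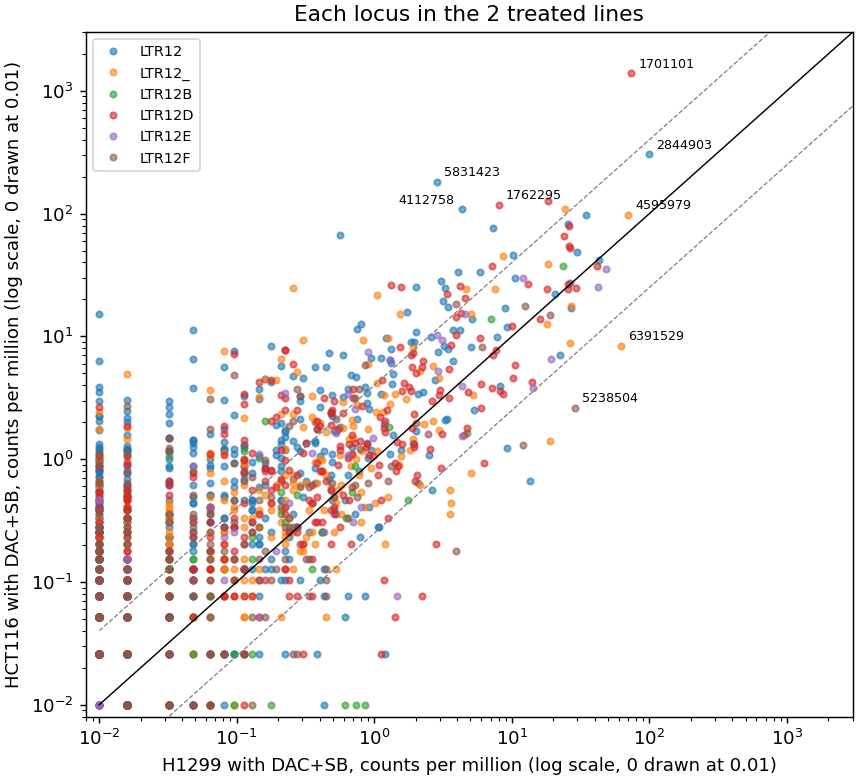
Each point is 1 of the 1804 loci, by its CPM in treated H1299 (horizontal) and treated HCT116 (vertical), both on log axes with 0 drawn at 0.01. The solid line marks equal levels and the dashed lines a 4-fold difference. Locus 1701101 stands highest in HCT116, and loci 6391529 and 5238504 lie below the lower dashed line.

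Per cell, the members were detected in a minority of DMSO cells and in nearly all treated cells. In cells thinned to 3300 counts, a count of any of the 6 names was seen in 4.30% (3.66 to 5.02) of DMSO H1299 cells, 92.7% (91.8 to 93.5) of treated H1299 cells, 25.5% (24.1 to 26.9) of DMSO HCT116 cells and 98.9% (98.5 to 99.2) of treated HCT116 cells. LTR12_ and LTR12B were not listed in DMSO H1299, and LTR12F was not listed in DMSO HCT116. The DMSO shares therefore cover fewer names than the treated ones and may be too low. The thinning left out 402 shallower cells of treated HCT116. Without it the shares were 19.8%, 98.8%, 41.9% and 99.5%, at the median depths given above. All cells here can carry LTR12 copies, so no cell type lacking them gives a background for free RNA, and the part of free RNA in these shares was not tested.

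With DAC+SB, the order of the subfamilies by detection in thinned cells was their order by level. Without thinning, LTR12F was seen in more treated H1299 cells than LTR12E. LTR12D was seen in 70.4% of thinned H1299 and 96.4% of thinned HCT116 cells with DAC+SB, and LTR12 in 63.4% and 88.7%. LTR12_ was seen in 57.5% and 72.8%, LTR12E in 33.0% and 36.6%, LTR12F in 27.6% and 34.2% and LTR12B in 11.9% and 19.8%. Without thinning, LTR12_ had 87.8% and 87.5%, LTR12E 65.8% and 58.0%, LTR12F 67.7% and 54.7%, and LTR12B 41.0% and 37.6%. The order of the lines thus turned for these names, while LTR12D and LTR12 stayed higher in HCT116. With DMSO, LTR12D in HCT116 reached 24.0%, and 1.97% without locus 1701101. In DMSO H1299 the 4 listed names were seen in 0.727% to 1.48% of cells. The median treated cell had 3 of the 6 names in H1299 and 4 in HCT116, and the median DMSO cell had 0. All 6 names were seen together in 53 of 3726 thinned H1299 cells (1.42%) and 174 of 3925 thinned HCT116 cells (4.43%). Without thinning the order of the lines turned, with 905 of 3726 H1299 cells (24.3%) and 831 of 4327 HCT116 cells (19.2%), and the medians were 5 and 4 names, so no order of the lines is read from these counts.

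**Figure D5:**
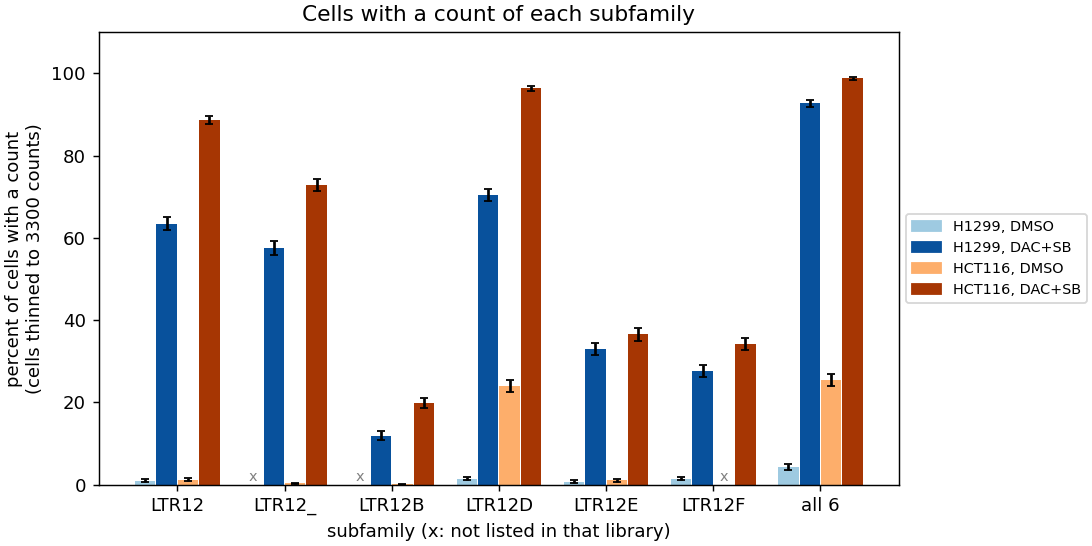
Percent of cells with at least 1 count of each subfamily, after thinning every cell to 3300 counts, with exact Clopper-Pearson 95% intervals (counting error only). Treated cells exceed DMSO cells for every subfamily listed in both, and LTR12D in DMSO HCT116, at 24.0%, is the only DMSO bar of a single subfamily above 1.48%.

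Abundant loci differed in how their counts were divided among cells. Over the 34 loci with at least 1000 counts in treated H1299, the mean count per cell with the locus ranged from 1.36 to 12.2, with a median of 1.95. LTR12 locus 5693236 was highest, with 2685 counts in 220 cells, 217 of them in 1 cell and 38.3% in the 10 cells with most. LTR12B locus 2739517 had 1463 counts in 906 cells and at most 12 in any cell. In treated HCT116 the 35 such loci ranged from 1.43 to 13.4 with a median of 2.05, and locus 1701101 was highest. Locus 5693236 was uneven there as well, with 1646 counts in 421 cells, at most 105 in 1 cell and 24.9% in the 10 cells with most.

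Treated cells with more LTR12C had more of the other LTR12 names. Thinned cells were ranked by LTR12C into 4 equal parts. From the part with least LTR12C to the part with most in H1299, the mean count of the 6 names was 2.29, 4.32, 6.15 and 12.2, while mean LTR12C was 15.1, 34.8, 60.1 and 133.1. In HCT116 the 6 names had means of 7.73, 14.0, 20.5 and 36.9, with LTR12C at 21.8, 50.6, 86.9 and 198.3. Across cells Pearson's r of the 6 names with LTR12C was 0.65 in 3726 H1299 cells and 0.72 in 3925 HCT116 cells, against 0.33 and 0.11 with TE counts other than LTR12. Spearman's rho was 0.66 and 0.73 with LTR12C, against 0.45 and 0.20 with TE counts other than LTR12. Without locus 1701101 Pearson's r with LTR12C was 0.66 and 0.73. By subfamily, r with LTR12C ran from 0.18 for LTR12B to 0.58 for LTR12D in H1299, and from 0.24 for LTR12B to 0.64 for LTR12 in HCT116. These names also differed in mean count per thinned cell, with 0.143 and 2.08 in H1299 and 0.251 and 7.14 in HCT116. The part of low counts in this range was not tested. These cells share a library and a fixed total, and cells are not replicates.

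The internal parts of ERV9, listed under HERV9 names, had far fewer counts than the LTRs. Over all listed classes they were also higher with DAC+SB where a DMSO value existed. HERV9 had 30 and 582 counts in H1299 and 22 and 1038 in HCT116, ratios of 20.1 (13.9 to 30.0) and 75.9 (49.9 to 121.7). HERV9N had 45 and 675 in H1299 and 21 and 1048 in HCT116, ratios of 15.5 (11.5 to 21.5) and 80.3 (52.3 to 130.3). HERV9NC had 50 and 1701 counts in HCT116 and 865 in treated H1299, and was not listed in DMSO H1299. The DMSO libraries listed fewer classes of these names than the treated ones, so the ratios may be too high. HERV9N had 1 class in DMSO HCT116 and 10 in treated HCT116, where 808 of its 1048 counts lay outside the main class. For HERV9 these numbers of classes were 1 and 8. Ratios over classes listed in both libraries were not computed for HERV9 names.

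Genes tied to LTR12 elements were examined as a list of 8, of factors that bind promoters of this kind and of genes started from them. TP63, a p53 family transcription factor, had 2 counts in DMSO H1299 and 1158 with DAC+SB, a ratio of 598.4 (165.3 to 4947), and 1 and 143 in HCT116, a ratio of 230.1 (40.6 to 9151). It was the only one of the 8 at least 4-fold higher in either line, where 11.0% of 14610 genes in H1299 and 9.63% of 13539 in HCT116 were. TNFRSF10B, a death receptor for TRAIL, had 1157 and 2896 counts in H1299 and 1467 and 1940 in HCT116, ratios of 2.59 (2.42 to 2.77) and 2.13 (1.99 to 2.28). GATA2 had 924 and 1368 counts in H1299 and 534 and 830 in HCT116, ratios of 1.53 and 2.50.

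The NF-Y subunits moved in different directions. NFYA had a ratio of 0.888 (0.814 to 0.970) for H1299 and 2.09 (1.92 to 2.29) for HCT116, and NFYC 0.622 and 0.573. NFYB had 1.15 and 1.21 (log2 ratios 0.21 and 0.28), and -0.43 and -0.52 on the log2 scale over features without a number after the gene's name, so its direction depended on which features were counted. SP1 and SP3, factors that bind GC-rich promoters, were lower in both treated lines, with ratios of 0.740 and 0.496 for SP1 and 0.648 and 0.538 for SP3. Among 7 genes of the silencing machinery none was at least 4-fold higher in either line. UHRF1, which guides maintenance methylation, had ratios of 0.411 and 0.229 in H1299 and HCT116 and was the only one of the 7 at least 4-fold lower, in HCT116, where 3.69% of genes were (0.349% in H1299). Over features without a number after the gene's name its log2 ratio in HCT116 was -1.89 in place of -2.13, which is short of 4-fold. DNMT1, the maintenance methyltransferase, had ratios of 0.472 and 0.652, and TRIM28, a corepressor of retroelements, 0.666 and 0.573. The other 4 genes, SETDB1, HDAC1, HDAC2 and HDAC3, ran from 0.763 to 1.12 in H1299, with HDAC1 highest, and from 0.550 to 0.765 in HCT116.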

How the data were processed

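The authors deposited 1 table of gene counts and 1 of TE counts, whole numbers given per feature and cell. Per the submitters' processing notes, CASAVA, STAR and builds GRCh38 and hg38 were named, without roles. The sources used here do not give the counting tool, the TE annotation, the filter on cells or whether counts are unique molecules. Cells were assigned to the 4 libraries by the library name in the cell name, and all 15289 were kept. No doublet caller was run.

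TE counts were summed per subfamily, position number, locus, library and cell with Python 3.11.15, pandas 2.3.3, numpy 2.4.6 and scipy 1.17.1, and divided by all gene and TE counts. Shares carry Clopper-Pearson intervals, counts Poisson intervals and ratios conditional binomial intervals, all at 95%. Thinning drew counts without replacement (seed 20). Folds over loci used at least 4-fold and 100 counts in the higher library. The scripts were tested on simulated data. Depth ranged from 38927267 to 64524196 counts per library.

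The loci named are those with most counts in each subfamily and some of the 10 with most counts overall in each treated library. Others were named after their values were seen, and the text says so or names them for an exception. The members and gene lists were chosen with earlier results of these data known. Alternatives changed the denominator, cells, loci, classes, minimum counts, folds and thinning.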

Additional observations from a re-analysis of the deposited data

How the results depend on the processing

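No paired analysis was possible because each group is 1 library. For the 6 names together, the log2 ratio of DAC+SB to DMSO in H1299 was 6.92 and became 6.48 over classes listed in both libraries, 7.16 over classes listed in all 4 and, in an alternative added after the data were seen, 6.56 over subfamilies listed in both. In HCT116 it was 4.72 and became 4.80 with gene counts as denominator, 4.85 as a mean over cells, 7.93 without the locus with most counts, 4.69, 4.42 and 4.68 under those 3 choices of classes and subfamilies, 4.75 without the 5% of cells with most counts and 4.61 without cells above 25% mitochondrial counts. Between the treated lines it was 1.55 and became 1.59 with gene counts, 1.66 without mitochondrial and ribosomal protein genes, 1.69 as a mean over cells, 1.21 without the top locus, 1.92 over classes listed in all 4, 1.61 without the 5% of cells and 1.48 without high-mitochondrial cells. For single subfamilies all 129 alternatives kept the sign and 9 moved the ratio by over 1.5 times, among them LTR12E over classes listed in all 4 (0.55 in H1299, 0.88 in HCT116).

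Loci counted in both treated lines numbered 193 at a minimum of 50 counts. Loci higher in HCT116 numbered 77 of 273 at 8-fold (24.3% of all TE loci) and 191 of 419 at a minimum of 50 counts (42.6%), and loci higher in H1299 38 of 273 at 2-fold (15.4%) and 9 at 8-fold (2.85%). Cells with a count, thinned to 2000 counts, made up 2.82%, 84.4%, 20.4% and 98.0% (H1299 first, DMSO first), against 19.8%, 98.8%, 41.9% and 99.5% unthinned. Loci with at least 5 counts numbered 15, 757, 32 and 1110. The cause of moves other than by fewer classes, loci, counts or cells was not tested. With 1 library per group, culture and capture cannot be told apart from treatment and line, and unlisted classes limit every low DMSO value.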

Other observations

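LTR12D locus 1701101 was compared in the same cells with LTR12C locus 1700968, the LTR12C locus nearest to it in number with at least 1000 counts in treated HCT116; the pair was chosen after values were seen, and the sources used here do not say whether near numbers mean near places. Locus 1700968 was also the LTR12C locus with most counts in both HCT116 libraries. No other LTR12C locus was compared in this way, so the shares below are not read as particular to near numbers. Locus 1700968 had 128 and 16533 counts in H1299 (DMSO first) and 4266 and 60574 in HCT116, so it too was higher in HCT116 than in H1299 with DMSO. In HCT116 DMSO 857 of the 1222 cells with locus 1701101 also had locus 1700968 (70.1%), against 12.1% of the cells without it. In H1299 DMSO 9 of 28 cells with the first had the second (32.1%), against 2.11% of other cells. With DAC+SB the shares were 80.1% against 55.5% in H1299 and 92.8% against 65.2% in HCT116. These cells were not thinned, and treated cells with locus 1701101 were deeper than those without it. Their median total counts were 18749.5 against 14795 in H1299 and 8774.5 against 5205 in HCT116. The part of depth in these shares was not tested. Spearman's rho across cells was 0.18 in DMSO H1299, 0.32 in treated H1299, 0.66 in DMSO HCT116 and 0.61 in treated HCT116, as a description of cells that share 1 library and differ in depth. Without locus 1700968 the LTR12C log2 ratio in HCT116 was 6.65, against 6.39 with it.

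LTR12 loci 2844898 and 2844903, picked out after their values were seen for their near numbers, had 64 and 97 counts in H1299 DMSO and 10 and 56 in HCT116 DMSO. With DAC+SB they had 1294 and 6151 in H1299 and 856 and 11858 in HCT116.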
